A study of Arabidopsis thaliana with 27 samples.

Results

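The 10 genes described here encode chaperones and glycan-binding lectins of the endoplasmic reticulum (ER) lumen and its membrane in Arabidopsis thaliana. They are the HSP70 proteins BIP1 (AT5G28540), BIP2 (AT5G42020) and BIP3 (AT1G09080), the HSP90 protein SHD (AT4G24190), the J-domain proteins ERDJ3A (AT3G08970), ERDJ3B (AT3G62600) and P58IPK (AT5G03160), and the lectins CRT1A (AT1G56340), CRT1B (AT1G09210) and CNX1 (AT5G61790). They were chosen by name, as 10 of the 33612 rows of the count table, from a wider list of the unfolded protein response that had been drawn up after results at 12 h of these data were known. All 10 held enough counts to be tested. Values that involve a 12 h library are therefore given as a description, without a p-value, and tests are given for 24 and 48 h.

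RNA came from whole seeds. The mutant hid1 is affected in HID1, a noncoding RNA, and phyB in phytochrome B, a red light photoreceptor, and both were set against the ecotype Col-0 (WT). The labels name no allele for either mutant and no age of the plants. Seeds of all 3 genotypes, stored dry for about 2 months, received 1 h of white light and then red light for 5 min, which activates phytochrome B, before 12, 24 or 48 h of darkness. Each of the 9 groups held 3 biological replicates, 27 libraries in all, with 14750212 to 26293148 counts per library. In bulk RNA of whole seeds, fewer cells of a type and less RNA per cell cannot be told apart.

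Proteins that enter the secretory pathway fold in the ER lumen. BiP binds exposed hydrophobic stretches in cycles of ATP hydrolysis that J-domain proteins stimulate, SHD is the ER form of HSP90, and calnexin and calreticulins hold glycoproteins through a glucose left on their N-glycans. When unfolded proteins build up, the unfolded protein response raises the transcription of many of these genes, in plants through the membrane-anchored factors bZIP28 and bZIP17 and through bZIP60, whose mRNA is spliced by IRE1. In seeds the ER lumen is where storage proteins fold during maturation and where secreted enzymes and wall proteins fold during germination.

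Promoter elements through which bZIP factors of this response are known to act were looked for on both strands in the 250 bases before each annotated gene start. The ER stress element, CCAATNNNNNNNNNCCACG, was found in 2 of the 10 members, SHD and P58IPK, and in 0.306% of 27438 promoters of the annotation. The unfolded protein response (UPR) element TGACGTGG was found in SHD once and in CRT1A at 2 places, and in 1.25% of promoters. Neither the ER stress element II, which is ATTGG, any base and CCACG (0.062% of promoters), nor TGACGTGA (0.59%) was found in a member. The sequences below are from the RefSeq assembly TAIR10.1 and run 5′ to 3′ on the strand of the gene. They are shown because they hold these matches: capitals mark the fixed letters of an ER stress element or the whole UPR element, on either strand. They are SHD chr4:12556059-12556114 (minus strand), CRT1A chr1:21092710-21092817 (minus strand) and P58IPK chr5:750032-750070 (plus strand).
SHD: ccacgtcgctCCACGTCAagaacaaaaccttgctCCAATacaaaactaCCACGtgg
CRT1A: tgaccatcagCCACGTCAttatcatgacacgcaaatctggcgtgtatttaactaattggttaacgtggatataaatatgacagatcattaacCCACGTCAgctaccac
P58IPK: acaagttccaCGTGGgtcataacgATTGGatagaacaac

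The ER stress element lay 22 to 4 bases before the annotated start of SHD and 59 to 41 bases before that of P58IPK. The core CCACG alone, which is also part of every match above, stood in 6 members (BIP2, SHD, CRT1A, CRT1B, ERDJ3A and P58IPK) and in 15.0% of promoters. BIP1, BIP3, CNX1 and ERDJ3B held none of the 5 motifs, in the exact letters searched, in this window. A looser form of the ER stress element, with any base in place of the first C of CCACG, was not searched for. Runs of that looser form stand in the windows of BIP3, CRT1A and P58IPK on the other strand. Its share of all promoters was not counted. The windows of SHD, CNX1 and ERDJ3A overlap 1 neighbouring gene each. With a window of 100 bases, the ER stress element was found in the same 2 members and in 0.186% of promoters. A match is a run of letters and not a measured binding site.

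**Figure D1:**
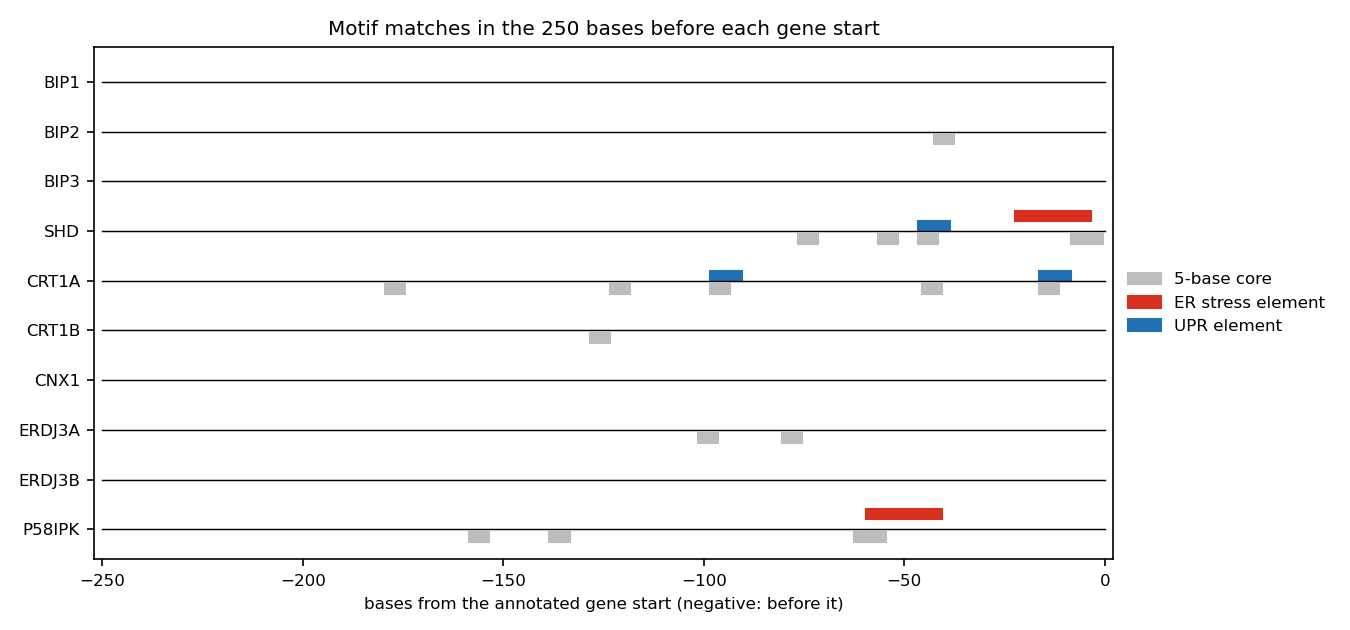
Positions of motif matches in the 250 bases before the annotated start of each member; the horizontal axis gives bases from the start, and bars mark the 5-base core (grey), the ER stress element (red) and the UPR element (blue) on either strand. SHD and P58IPK hold the ER stress element, SHD and CRT1A the UPR element, and BIP1, BIP3, CNX1 and ERDJ3B hold no match to the exact letters searched. Looser forms are not drawn.

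HID1 and PHYB transcripts were read first as checks of the labels. HID1 had 1, 0 and 1 counts in the hid1 libraries at 12 h, 0, 0 and 0 at 24 h and 0, 1 and 0 at 48 h, against a mean of 24.5, 15.9 and 10.9 CPM in WT seeds at 12, 24 and 48 h. CPM are counts per 1000000 on library sizes scaled by TMM. PHYB averaged 56.7, 69.7 and 112 CPM in phyB seeds at 12, 24 and 48 h, against 117, 125 and 95.4 CPM in WT seeds, so its transcript level does not check the phyB label at 48 h. The phyB libraries of 12 h stood apart from the other libraries of that time. Their mitochondrial genome transcripts made up 0.0178% to 0.0202% of counts, against 0.0764% to 0.160% in the 6 hid1 and WT libraries at 12 h and 0.0151% to 0.0280% in the 9 libraries at 24 h. The phyB libraries of 24 h, which are among these 9, held 0.0195% to 0.0246%, also below the hid1 and WT libraries of 12 h. Across 20465 genes, which are not independent replicates, the mean log2 CPM of phyB at 24 h had a Pearson r of 0.967 with WT at 12 h, against 0.950 for phyB at 12 h. With WT at 24 h, r was 0.945 for phyB at 24 h and 0.938 for phyB at 12 h. Each phyB group of 12 and 24 h was thus nearer to WT at 12 h than to WT at 24 h. Whether the phyB libraries labelled 12 h and 24 h were exchanged was not tested, so the differences of phyB from WT and of hid1 from phyB at 24 h are also given with the labels exchanged. Exchanged values at 24 h come from libraries labelled 12 h, so they and their counts are a description, without a p-value. Endosperm, embryo and seed coat marker levels are given with the results of phyB.

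Levels of different genes can be set side by side in the authors' FPKM table, which divides by transcript length and gives 1 mean per group, with no replicates. Summed over the 10 members it held 603, 1823 and 498 FPKM at 12 h in hid1, phyB and WT seeds. The sums were 1172, 1041 and 1851 FPKM at 24 h and 999, 391 and 2025 FPKM at 48 h in the same order of genotypes. The highest of the 9 sums, in WT, and the lowest, in phyB, both belonged to 48 h. On TMM-scaled CPM, which do not divide by length, the lowest sum was that of WT seeds at 12 h: it was 1207 ± 68.3 CPM in phyB seeds at 48 h and 1133 ± 130.2 CPM in WT seeds at 12 h (SD, n = 3 each), and libraries of these groups overlapped. Among the 10 genes the order by FPKM changed little at its lower end: ERDJ3B, P58IPK, ERDJ3A and BIP3 took the last 4 places in all 9 groups. In WT seeds at 48 h the upper 6 genes lay close together, at 339 FPKM for BIP2, 334 for CNX1, 329.7 for CRT1A, 315 for CRT1B, 294 for BIP1 and 292 for SHD. In phyB seeds at 48 h they lay at 45.9 for BIP2, 101 for CNX1, 71.2 for CRT1A, 22.0 for CRT1B, 77.3 for BIP1 and 35.8 FPKM for SHD. CNX1 led there, and CRT1B stood last of the 6.

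**Figure D2:**
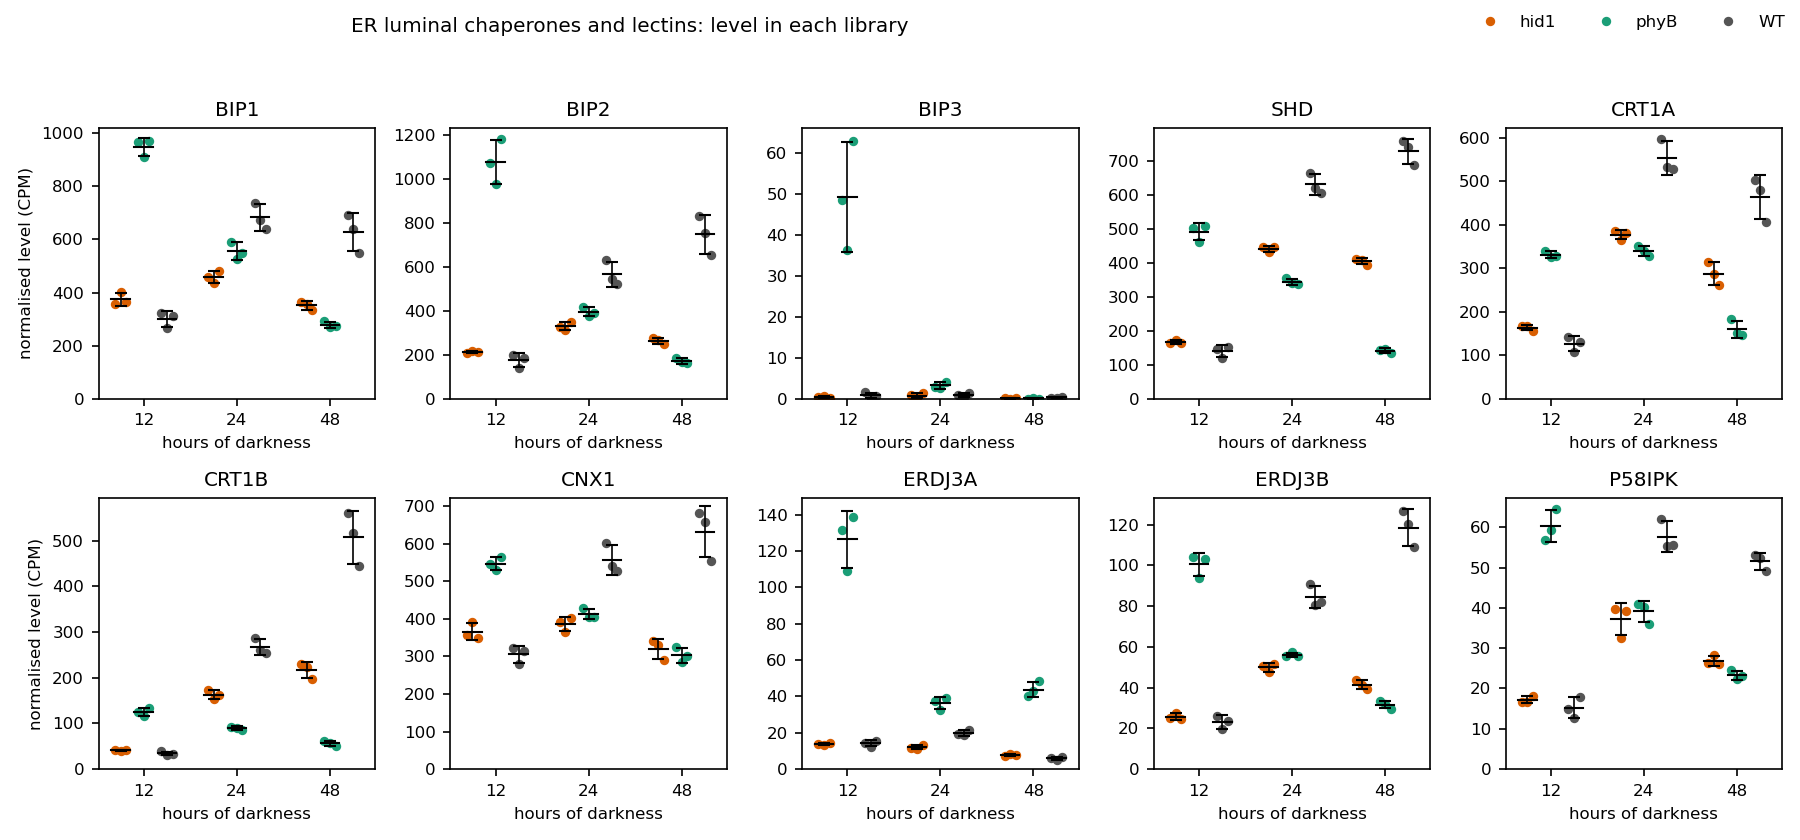
Level of each member in each library, in CPM on a linear axis from 0, against hours of darkness; points are the 3 libraries of hid1 (orange), phyB (green) and WT (grey), and black bars give mean and SD. At 48 h the WT libraries lie above both mutants for 9 of the members, BIP3 at levels under 1 CPM among them, while ERDJ3A is highest in phyB at each time.

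BIP1 and BIP2, the major BiP proteins, are near copies on chromosome 5, at chr5:10540123-10543558 and chr5:16807342-16810693 (TAIR10.1, both on the minus strand). Their coding sequences were identical at 95.95% of aligned positions, and 174 of 2687 stretches of 150 bases in BIP1, the length of a read, also occurred in BIP2. The sources used here do not say how a read that fits both genes was counted, and its part in their difference was not tested. BIP3 (chr1:2929217-2931850, minus strand), which is known in Arabidopsis for its strong induction by ER stress, shared 70.67% and 70.76% of positions with BIP1 and BIP2 and no such stretch. The calreticulins CRT1A (chr1:21089565-21092709) and CRT1B (chr1:2972638-2977002), both on the minus strand, shared 83.41% and no stretch of that length.

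BIP2 differed more between groups than BIP1. Its 3 libraries held 209, 218 and 213 CPM in hid1, 1072, 978 and 1178 CPM in phyB and 198, 137 and 186 CPM in WT seeds at 12 h. In darkness of 24 h they held 327, 313 and 350.4 CPM in hid1, 417, 376 and 389 CPM in phyB and 629, 544 and 521 CPM in WT seeds. At 48 h they held 276, 265 and 249 CPM in hid1, 184, 166 and 160.1 CPM in phyB and 832, 755 and 653 CPM in WT seeds. WT libraries were the highest at 24 and 48 h, with no overlap with either mutant, and phyB libraries the highest at 12 h. Of neighbouring groups in the order of means, only phyB at 48 h and WT at 12 h overlapped.

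Said of a mutant, fell and rose mean lower or higher than WT at the same time, here and below, and not a change over time. BIP2 fell in hid1 seeds by 0.78 at 24 h and by 1.50 at 48 h on the log2 scale (SE 0.10 and 0.11). The adjusted p-values of edgeR's quasi-likelihood test, with Benjamini-Hochberg adjustment over all genes tested, were 4.21e-06 and 4.61e-13. In phyB seeds it fell by 0.52 at 24 h and by 2.13 at 48 h (SE 0.10 and 0.11, adjusted p 7.32e-05 and 1.04e-16). With the phyB labels of 12 and 24 h exchanged, the 24 h difference was +0.93, as a description.

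BIP1 followed the same order of genotypes at a narrower range. Its group means ran between 278 ± 11.7 CPM in phyB seeds at 48 h and 949.6 ± 34.7 CPM in phyB seeds at 12 h (SD, n = 3). It held, at 24 h, 458 ± 23.3 CPM in hid1, 556 ± 33.2 CPM in phyB and 683 ± 49.9 CPM in WT seeds. At 48 h it held 351 ± 16.1 CPM in hid1 and 278 ± 11.7 CPM in phyB, against 628 ± 72.8 CPM in WT seeds. The libraries of each mutant lay below those of WT at both times. In the authors' FPKM table the ratio of BIP2 to BIP1 was 1.10 in phyB seeds at 12 h and 1.15 in WT seeds at 48 h, and 0.554 to 0.801 in the other 7 groups.

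BIP3 was close to its detection limit in all groups but phyB seeds at 12 and 24 h. At 12 h its counts were 745, 632 and 1109 in phyB, against 5, 11 and 3 in hid1 and 30, 3 and 11 in WT libraries. The counts at 24 h were 17, 3 and 24 in hid1, 46, 43 and 69 in phyB and 17, 10 and 26 in WT libraries. At 48 h it had 2, 0 and 1 counts in hid1, 0, 1 and 0 in phyB and 7, 7 and 9 in WT libraries. The phyB libraries did not overlap with those of the other genotypes at 12 or 24 h, and the hid1 and WT libraries overlapped at both times.

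Summed over replicates and scaled to library size, BIP3 in phyB was 61.0 times WT at 12 h (95% exact counting interval 45.3 to 84.2). The size of this difference depends on labels and on 1 library: its log2 value was 5.92, 1.99 with the phyB labels of 12 and 24 h exchanged, and 6.91 without WT replicate 1 of 12 h, which held 30 of the 44 WT counts. The ratio at 24 h was 3.76 times WT (2.73 to 5.23). The log2 fold change of phyB at 24 h was 1.90 (SE 0.43, adjusted p 0.000332 by edgeR's quasi-likelihood test). At 48 h the direction of the counts was the other way: WT held 6.24 times the hid1 level (1.88 to 32.5) and 12.3 times the phyB level (2.00 to 507). These intervals cover counting error only, and reads without molecular identifiers are not independent molecules. Neither 48 h difference passed the test across replicates, with adjusted p-values of 0.0702 for hid1 and 0.0629 for phyB.

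SHD (SHEPHERD; chr4:12551552-12556058, minus strand) is the ER HSP90, known from mutants with disturbed meristems. It had 165, 174 and 163 CPM in hid1, 504, 463 and 509 CPM in phyB and 147, 120.1 and 151 CPM in WT libraries at 12 h. The libraries of 24 h had 446, 432 and 446 CPM in hid1, 355, 339.8 and 338 CPM in phyB and 666, 621 and 606 CPM in WT libraries. At 48 h it had 410.4, 408 and 395 CPM in hid1, 144, 146 and 134 CPM in phyB and 758, 741 and 688 CPM in WT libraries. From 24 h on, the order was WT above hid1 above phyB with no overlap. SHD fell in hid1 by 0.52 and 0.85 on the log2 scale at 24 and 48 h (SE 0.07 each, adjusted p 3.27e-06 and 7.90e-12). In phyB it fell by 0.87 and 2.36 (SE 0.07 each, adjusted p 8.55e-12 and 9.87e-22).

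Of the J-domain proteins, ERDJ3B and P58IPK followed BIP2 and ERDJ3A did not. ERDJ3B (chr3:23150779-23153649, minus strand) is known to work with BiP in the folding of immune receptors. It held 25.7 ± 1.62 CPM in hid1, 100.5 ± 5.81 CPM in phyB and 23.0 ± 3.38 CPM in WT seeds at 12 h (SD, n = 3). Its libraries of 24 h held 50.7, 47.5 and 51.6 CPM in hid1, 55.6, 57.3 and 55.4 CPM in phyB and 90.8, 80.5 and 82.0 CPM in WT libraries. At 48 h it held 43.6, 41.3 and 39.2 CPM in hid1, 33.5, 31.8 and 29.7 CPM in phyB and 126, 120.2 and 109 CPM in WT libraries. Both mutants lay below WT without overlap at 24 and 48 h. ERDJ3B fell in hid1 by 0.76 and 1.52 (SE 0.08 each, adjusted p 4.16e-08 and 3.40e-16) and in phyB by 0.59 and 1.90 on the log2 scale (SE 0.08 each, adjusted p 1.09e-07 and 1.37e-18).

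P58IPK (chr5:750101-752805, plus strand), a luminal J-domain protein with tetratricopeptide repeats, was among the lowest members. It held 17.2 ± 0.862 CPM in hid1, 60.2 ± 3.95 CPM in phyB and 15.2 ± 2.60 CPM in WT seeds at 12 h. At 24 h, P58IPK held 37.2 ± 3.97 CPM in hid1, 39.1 ± 2.68 CPM in phyB and 57.7 ± 3.85 CPM in WT seeds, and at 48 h 26.8 ± 1.22 CPM in hid1, 23.3 ± 1.15 CPM in phyB and 51.6 ± 2.12 CPM in WT seeds (SD, n = 3 each). Both mutants lay below WT at 24 and 48 h.

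ERDJ3A (chr3:2737297-2740549, plus strand), known as TMS1 for its part in pollen tube growth at high temperature, had a pattern of its own. At 12 h it held 13.9, 13.4 and 14.3 CPM in hid1, 131, 109 and 139 CPM in phyB and 14.6, 12.4 and 15.5 CPM in WT libraries. The 24 h libraries held 11.6, 11.2 and 13.4 CPM in hid1, 37.6, 32.6 and 39.0 CPM in phyB and 19.1, 18.8 and 21.5 CPM in WT libraries. At 48 h it held 7.46, 8.06 and 7.77 CPM in hid1, 40.1, 42.9 and 48.3 CPM in phyB and 5.99, 5.04 and 6.46 CPM in WT libraries. The phyB libraries were above all others at each time. The hid1 libraries lay below WT at 24 h and above WT at 48 h.

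Relative to WT at the same time, ERDJ3A in hid1 seeds was lower by 0.71 on the log2 scale at 24 h (SE 0.11, adjusted p 2.43e-05). It was higher by 0.42 at 48 h (SE 0.13, adjusted p 0.00414). In phyB seeds it was higher than WT by 0.88 at 24 h and by 2.92 at 48 h (SE 0.10 and 0.11, adjusted p 7.31e-09 and 1.22e-19). With the phyB labels of 12 and 24 h exchanged, the difference from WT at 24 h was 2.68 on the log2 scale. ERDJ3A and BIP3 were the 2 members for which phyB at 24 h was higher than WT.

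Among the lectins, CRT1B ranged most widely. It held 41.2, 40.1 and 42.7 CPM in hid1, 125, 116 and 134 CPM in phyB and 38.5, 30.6 and 33.5 CPM in WT libraries at 12 h. Its 24 h values were 173, 153 and 162 CPM in hid1, 93.3, 89.7 and 84.8 CPM in phyB and 287, 261 and 253 CPM in WT libraries. At 48 h it held 229.9, 224 and 196 CPM in hid1, 61.1, 57.3 and 49.7 CPM in phyB and 561, 516 and 445 CPM in WT libraries. No 2 of the 9 groups that were neighbours in the order of means overlapped, and hid1 lay between phyB and WT at 24 and 48 h. CRT1B fell by 0.72 and 1.23 in hid1 at 24 and 48 h (SE 0.09 each, adjusted p 9.97e-07 and 5.62e-13) and had log2 fold changes of -1.58 and -3.18 in phyB (SE 0.09 and 0.10, adjusted p 1.09e-14 and 7.61e-22).

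CRT1A, the other calreticulin of this pair, moved over a smaller range. Its level at 24 h was 377 ± 10.5 CPM in hid1, 339 ± 10.96 CPM in phyB and 553 ± 38.9 CPM in WT seeds, and at 48 h 287 ± 25.8 CPM in hid1, 159.5 ± 20.0 CPM in phyB and 463 ± 51.2 CPM in WT seeds. CNX1 (chr5:24827063-24829900, minus strand), the membrane-bound calnexin, had the smallest ratio of highest to lowest group mean of the 10, at 2.09. Its group means lay between 303 ± 20.3 CPM in phyB seeds at 48 h and 631 ± 67.9 CPM in WT seeds at 48 h (SD, n = 3 each). At 48 h the hid1 and phyB libraries of CNX1 overlapped each other, at 341, 330.3 and 291 CPM in hid1 and 324, 284 and 300.0 CPM in phyB, and both lay below WT.

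The effect of hid1 on the whole group was as follows. At 12 h, given as a description, 9 of the members lay within 0.37 of WT on the log2 scale. An adjusted p under 0.05, the threshold used throughout, was reached by 4 of them in the upward direction (BIP1, SHD, CRT1A and CNX1), by 7.49% of all genes in that direction and by 5.91% in the other. Without the second WT library of 12 h, 0 members reached it, and without the second hid1 library of that time 2 did. The exception in size was BIP3, at -1.21 (SE 0.71), which rests on 19 counts in hid1 and 44 in WT. Without WT replicate 1 of 12 h, the library with 30 of those 44, BIP3 had -0.23, within 0.37 of WT.

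At 24 h, 9 of 10 members fell in hid1 seeds, and the last, BIP3, did not pass. Over all genes tested, 6.87% fell and 8.46% rose. The median of the members was -0.60 and that of all genes 0.00 on the log2 scale. The falls ran between 0.52 for SHD and 0.78 for BIP2 (SE 0.07 to 0.11), so the group moved within a narrow band, and CNX1 (-0.53), CRT1A (-0.55), BIP1 (-0.58) and P58IPK (-0.63) stood inside it. The highest adjusted p among them was 7.14e-05, for CRT1A. BIP3 had -0.19 (SE 0.56, adjusted p 0.893). In all 9 that fell, the hid1 and WT libraries did not overlap. The share of all genes without overlap was not counted in this or any other comparison. With total counts as library size, 37.9% of the genes that passed were higher in hid1, against 55.2% with TMM, and the members' count stayed at 9.

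At 48 h, 8 members fell in hid1, 1 rose (ERDJ3A) and 1 did not pass (BIP3). The highest adjusted p of the 8 was 1.06e-07, for CRT1A (SE 0.07 to 0.11). Here the background was large, since 43.0% of all genes fell and 36.3% rose. The members' median was -0.96 and that of all genes -0.06 on the log2 scale. The falls differed among members: BIP2 and ERDJ3B lay near 3-fold, while CRT1A (-0.69), BIP1 (-0.84), P58IPK (-0.94) and CNX1 (-0.98) lay below 2-fold.

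The hid1 difference at 48 h was further from WT than that at 24 h for 6 of 10 members by the test of that change itself, and in ERDJ3A it turned to the other direction (30.5% of all genes passed this test upward and 32.1% downward). The change of the effect was -0.73 for BIP2 (adjusted p 0.0001), -0.76 for ERDJ3B (6.67e-07) and +1.13 for ERDJ3A (1.56e-06), by edgeR's quasi-likelihood test on the log2 scale. CRT1A (-0.14, adjusted p 0.369), BIP1 (-0.26, 0.0528) and BIP3 (-2.29, 0.157) did not pass. BIP1 passed with RLE size factors (0.0156), DESeq2 (0.00923) and the replicate block (0.0342), and when replicate 1 of WT at 24 h, replicate 2 of hid1 at 24 h or replicate 3 of WT at 48 h was left out (0.00752 to 0.0454).

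**Figure D3:**
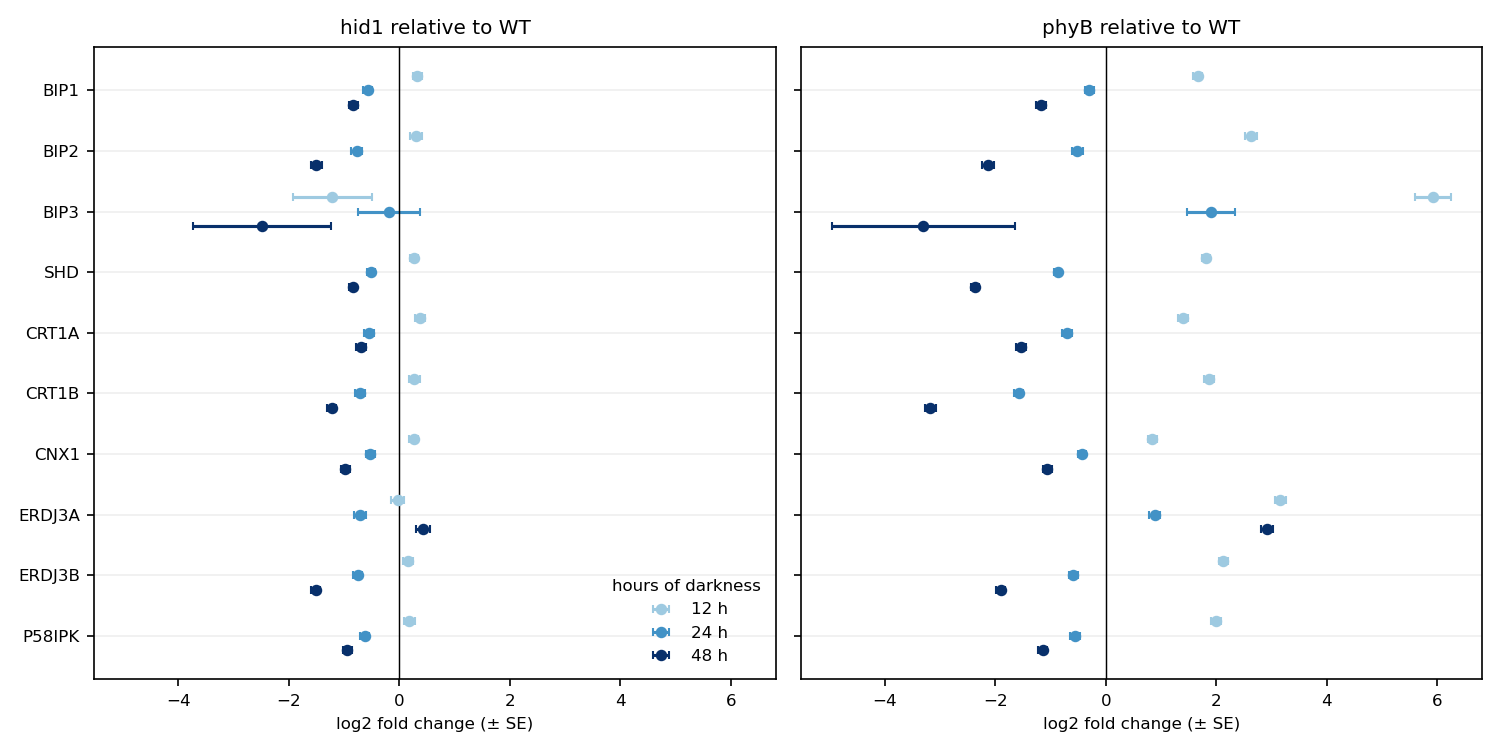
Log2 fold change of each member in hid1 (left) and phyB (right) relative to WT with its standard error, at 12, 24 and 48 h of darkness. In hid1 most members lie above 0 at 12 h and below it at 24 and 48 h, and in phyB all 10 lie above 0 at 12 h and 8 below it at 24 h; BIP3 at 48 h rests on 3 counts in hid1 and 1 in phyB.

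In phyB seeds at 12 h, again as a description, all 10 members lay above WT and past the threshold, as did 30.0% of all genes, with 34.2% below. Their median log2 difference was 1.93. BIP3 had 5.92, ERDJ3A 3.16, BIP2 2.63, ERDJ3B 2.12, P58IPK 1.99, CRT1B 1.86, SHD 1.82, BIP1 1.66, CRT1A 1.39 and CNX1 0.84. These values were among those known when the list behind the members was drawn up. With the labels of phyB at 12 and 24 h exchanged, all 10 also lay above WT at 12 h, with a median of 1.33. BIP3 then had 1.99, ERDJ3A 1.36, BIP2 1.18 and CNX1 0.43, and 28.4% of all genes lay above WT and 28.7% below. With library sizes from total counts, 56.7% of the genes past the threshold were higher in phyB, against 46.7% with TMM.

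At 24 h, 8 members fell in phyB and 2 rose, BIP3 and ERDJ3A. Of all genes tested, 34.6% fell and 31.8% rose. The members' median was -0.54, against 0.00 for all genes. CRT1B, at -1.58, was the furthest below WT, and BIP1, at -0.30 (SE 0.08, adjusted p 0.00219), the nearest of those that fell. The count depends on the labels of the phyB libraries: with 12 and 24 h exchanged, as a description, 5 members rose and 3 fell, against 33.1% and 34.4% of all genes. BIP1 then had +0.47 and ERDJ3B +0.25, while P58IPK (+0.06) and CNX1 (-0.03) did not reach the threshold. BIP2 (+0.93), BIP3 (+5.84) and ERDJ3A (+2.68) were the others that rose. SHD (-0.36), CRT1A (-0.74) and CRT1B (-1.10) were the 3 that fell under both readings. When totals served as library sizes, the median of all genes was -0.23 and that of the members -0.77, and 32.4% of the genes that passed were higher in phyB, against 47.9% with TMM.

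At 48 h, which does not use the phyB libraries in doubt, 8 members fell in phyB, 1 rose and 1 (BIP3) did not pass. The highest adjusted p of the 9 that passed was 1.33e-12, for P58IPK (SE 0.07 to 0.11). These WT libraries are the same as in the hid1 comparison. Of all genes, 49.4% fell and 40.0% rose. The members' median was -1.72, against -0.24 for all genes. CRT1B fell by 3.18, or 9.05-fold, SHD by 2.36, BIP2 by 2.13, ERDJ3B by 1.90 and CRT1A by 1.54 on the log2 scale. BIP1 (-1.17), P58IPK (-1.15) and CNX1 (-1.06) lay near 2-fold below WT. ERDJ3A rose by 2.92, or 7.54-fold. The TMM factors were 0.684 to 0.729 in phyB libraries at 48 h, against 1.08 to 1.19 in WT. With unscaled library totals, the median of all genes was -0.92 and that of the members -2.40, ERDJ3A still rose, and 29.1% of the genes that passed were higher in phyB, against 44.8% with TMM.

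The change of the phyB effect between 24 and 48 h passed the test in all 10 members, and in 35.4% of all genes upward and 36.5% downward. It was downward in 9, among them CRT1B with -1.60 (adjusted p 9.74e-12), BIP2 with -1.62 (1.62e-10) and SHD with -1.49 (1.84e-13), and upward in ERDJ3A with +2.03 (1.77e-12). With the labels exchanged, as a description, the change of ERDJ3A was 0.24 and short of the threshold, and the other 9 lay past it in the same direction.

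Markers of seed tissues differed between the same groups. The summed level of 4 endosperm markers was 3065 to 3224 CPM in hid1, 14218 to 16689 CPM in phyB and 757 to 922 CPM in WT libraries at 48 h. The same sum at 24 h was 3426 to 4066 CPM in hid1, 2694 to 3999 CPM in phyB and 2598 to 3130 CPM in WT libraries. The summed level of 5 embryo markers at 48 h was 761 to 834 CPM in hid1, 339 to 369 CPM in phyB and 1290 to 1732 CPM in WT libraries, and at 24 h 654 to 694, 354 to 392 and 577 to 620 CPM in the same order. By edgeR's test, 4 of 4 endosperm markers rose at 48 h in hid1, and 2 rose and 2 fell in phyB. Of the embryo markers 1 rose and 2 fell in hid1, and 4 fell in phyB. Of all genes at 48 h, 36.3% rose and 43.0% fell in hid1, and 40.0% rose and 49.4% fell in phyB. At 24 h 3 endosperm (2 by DESeq2) and 2 embryo markers rose in hid1, against 8.46% of all genes. In phyB at that time 3 endosperm markers fell and 1 rose, with a median of -1.26 on the log2 scale that the sum does not show, and all 5 embryo markers fell. Of all genes in phyB at 24 h, 31.8% rose and 34.6% fell. With exchanged labels, 2 endosperm markers rose and 2 fell in phyB at 24 h, and the embryo markers again fell, against 33.1% and 34.4% of all genes. All 9 of these markers were detected in every group. The 4 seed coat markers summed to at most 2.42 CPM in any library, and 1 to 3 of BAN, DFR and TT12 were at 0 counts in each group. The part of these tissues in the differences of the members was not tested.

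Between the mutants, at 12 h all 10 members lay lower in hid1 than in phyB, as a description, as did 29.5% of all genes. At 24 h SHD (+0.36) and CRT1B (+0.87) were higher in hid1, and BIP1 (-0.28), BIP2 (-0.26), BIP3 (-2.09) and ERDJ3A (-1.59) lower, while 34.3% of all genes were higher and 31.5% lower. With the phyB labels exchanged, 1 was higher and 8 were lower, against 35.4% and 32.0% of all genes, and SHD then had -0.16. The call of BIP2 ended without replicate 1 or 2 of hid1 or replicate 1 or 3 of phyB (highest adjusted p 0.115). With total counts as library size, BIP1 and BIP2 did not pass (adjusted p 0.205 and 0.473), the median of all genes was 0.17, and 64.3% of the genes that passed were higher in hid1, against 52.1% with TMM.

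At 48 h, 7 members were higher in hid1 than in phyB and ERDJ3A was lower. Of all genes, 41.0% were higher and 37.9% lower. CRT1B had +1.95 (SE 0.09, adjusted p 7.16e-17), SHD +1.51 (SE 0.07, 4.44e-17), CRT1A +0.85, BIP2 +0.63, ERDJ3B +0.39 and BIP1 +0.34 on the log2 scale. ERDJ3A had -2.49 (SE 0.11, adjusted p 1.17e-17). P58IPK passed narrowly, with +0.20 (adjusted p 0.0486), and passed with a library left out only where that was the first of phyB (highest adjusted p otherwise 0.147). CNX1 had +0.08 (SE 0.08, adjusted p 0.348). With library sizes from total counts, the median of all genes was 0.73 and that of the members 1.18, against 0.06 and 0.51 with TMM, and 77.0% of the genes that passed were higher in hid1, against 52.0%.

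In WT seeds the group was higher at 24 h than at 12 h, which is given as a description. Past the threshold lay 9 members in the upward direction, and 33.1% of all genes. CRT1B was 7.79-fold higher, SHD 4.52-fold, CRT1A 4.38-fold, P58IPK 3.79-fold, ERDJ3B 3.66-fold, BIP2 3.25-fold, BIP1 2.28-fold, CNX1 1.82-fold and ERDJ3A 1.39-fold. BIP3 had 53 counts at 24 h and 44 at 12 h, a log2 difference of 0.09, or of 1.07 without replicate 1 of 12 h. When totals served as library sizes, 71.9% of the genes past the threshold were higher at 24 h, against 50.5% with TMM.

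Between 24 and 48 h in WT seeds the members parted. CRT1B rose by 0.93 on the log2 scale (SE 0.09, adjusted p 1.23e-10), ERDJ3B by 0.49 (SE 0.07, 6.55e-07), BIP2 by 0.40 (SE 0.10, 0.000812), SHD by 0.21 (SE 0.07, 0.00626) and CNX1 by 0.18 (SE 0.08, 0.0365). ERDJ3A fell by 1.77 (SE 0.11, adjusted p 5.67e-14), CRT1A by 0.26 (SE 0.09, 0.0112) and BIP3 by 1.53 (SE 0.65, 0.0312). BIP1 (-0.12, adjusted p 0.166) and P58IPK (-0.16, 0.0645) did not pass. Among all genes 44.2% rose and 38.0% fell. Several of these calls rest on the fit or on single libraries. BIP3 did not pass with DESeq2 (adjusted p 0.054), nor without replicate 1 or 3 of 24 h or replicate 1 or 2 of 48 h (up to 0.171). CRT1A did not pass with RLE size factors (0.126), with DESeq2 (0.129), or without replicate 1 of 24 h or replicate 3 of 48 h (up to 0.0933). CNX1 did not pass with total counts (0.054), without the phyB libraries of 12 and 24 h (0.12), with only the groups compared in the fit (0.199), or without replicate 2 or 3 of 24 h or replicate 1 or 2 of 48 h (up to 0.187). SHD did not pass with only the groups compared in the fit (0.0827). P58IPK passed, downward, in that fit (adjusted p 0.0189), with total counts (0.0346) and without the phyB libraries of 12 and 24 h (0.0364), and BIP1 passed downward with total counts (0.0483) and without replicate 1 of 48 h (0.0345).

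Most members shared 1 pattern over the 9 groups. Each group mean of log2(CPM + 1) was turned into a z score per gene, and the mean of the 10 was taken as the shared profile. It was highest in phyB seeds at 12 h (1.23) and lowest in WT seeds at 12 h (-1.10). With the mean of the other 9, Pearson's r over the 9 groups was 0.954 to 0.976 for BIP1, BIP2, ERDJ3B and P58IPK. It was 0.836 to 0.889 for SHD, CRT1A and CNX1, 0.676 for CRT1B, 0.535 for BIP3 and 0.179 for ERDJ3A. These values describe groups that share libraries and scaling with each other. They include the 12 h groups, whose results were known when the list behind the members was drawn up. The choice of members may therefore have shaped them, and they are given as a description.

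**Figure D4:**
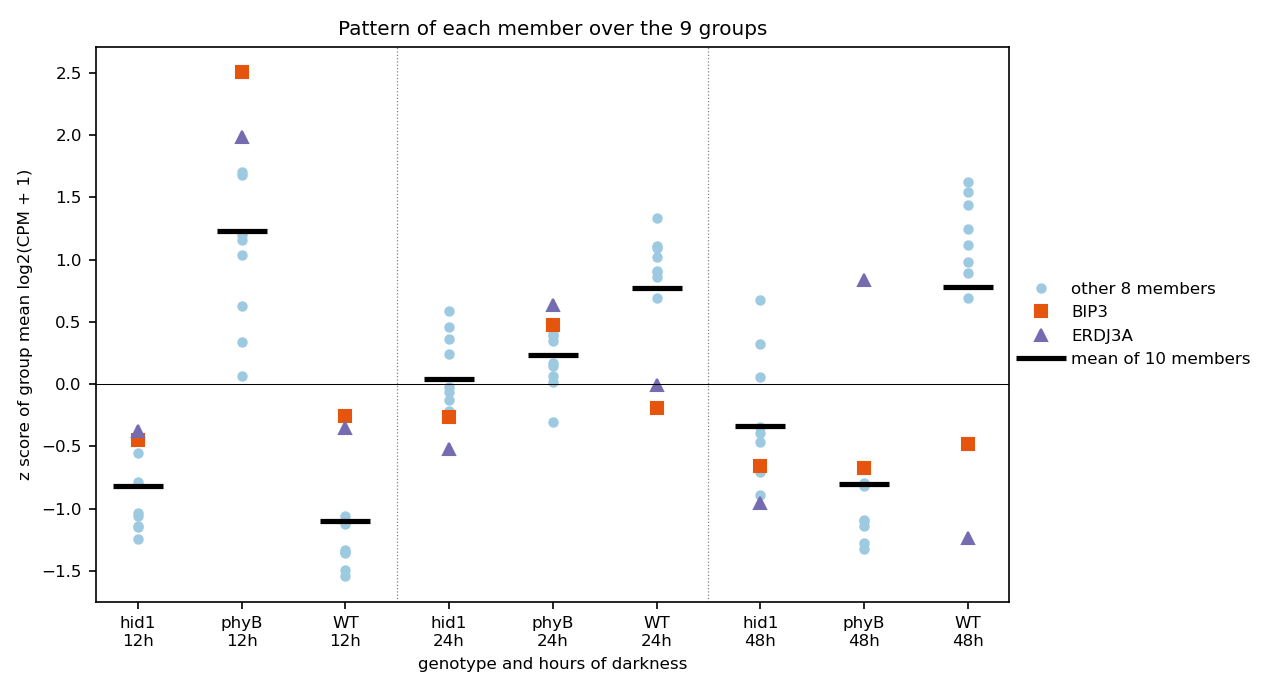
Z score of each member's mean log2(CPM + 1) in each of the 9 groups; blue points are 8 members, the square is BIP3, the triangle ERDJ3A and the black bar the mean of all 10. The mean lies at 1.23 in phyB seeds at 12 h and at -1.10 in WT seeds at 12 h, and ERDJ3A leaves the others at 48 h, with 0.83 in phyB and -1.23 in WT seeds.

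The shared profile includes the 12 h groups, so the genes most like it are also given as a description. Of 14515 other genes with at least 10 CPM in a group, the 8 with the highest r to the shared profile over the 9 group means were these. MYB101 had r = 0.983, SDF2 0.978, AT4G10360 (annotated as a TLC lipid-sensing domain protein) 0.971 and AT4G34630 (annotated as prostatic spermine-binding-like) 0.967. ATG3 (autophagy 3) and AT1G68820 (annotated as a transmembrane protein) had 0.967, the kinase MKK4 0.966 and the signal peptide peptidase SPP 0.963. SDF2 averaged 43.6 CPM in hid1, 93.9 CPM in phyB and 36.4 CPM in WT seeds at 12 h, and 42.2 CPM in hid1, 36.0 CPM in phyB and 81.3 CPM in WT seeds at 48 h. MYB101 averaged 17.9 CPM in hid1, 47.7 CPM in phyB and 16.4 CPM in WT seeds at 12 h, and 22.9 CPM in hid1, 19.9 CPM in phyB and 47.1 CPM in WT seeds at 48 h.

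Other genes of ER folding and of the response to unfolded proteins were read from 6 lists. Their counts stand against the shares of all genes in the same comparison, and no test of a list was made. In hid1 seeds at 24 h, 5 of 11 protein disulfide isomerases and ER oxidoreductins fell, against 6.87% of all genes. PDIL2-2 held 26.8 ± 0.484 CPM in hid1 and 48.9 ± 3.22 CPM in WT seeds (log2 fold change -0.87, SE 0.09, adjusted p 5.66e-08). Of 7 other ER chaperones and BiP partners 4 fell, among them the second calnexin, CNX2 (-0.71, SE 0.06, 2.00e-09), and SDF2 (-0.48). Of 9 genes of N-glycosylation and glycan trimming 0 passed by edgeR or by DESeq2 and 0 had an unadjusted p under 0.05, and their log2 fold changes lay between -0.10 and 0.07. Of 11 genes of ER-associated degradation 4 fell and 1 rose, among the fallen CDC48A (-0.37), the ATPase that pulls proteins out of the ER. Of 9 tested sensors and transcription factors of the unfolded protein response 1 rose, the protease S1P (0.17, adjusted p 0.0455). Both single rises, that of S1P and that of UBC32 among the degradation genes (0.20, 0.0496), did not pass with DESeq2.

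Most heat shock proteins of other compartments did not pass in hid1 at 24 h, and most of those that passed fell. Of 18 tested HSP70, HSP110 and HSP90 genes of the cytosol, plastids and mitochondria, 7 fell, 1 rose and 10 did not pass, against 6.87% of all genes that fell and 8.46% that rose, and their median was -0.06. How this list differs from the members was not tested. Of those, HSP70-4 (-1.09, adjusted p 2.18e-06) and HSP90.1 (-1.22, 1.89e-05) fell by more than 2-fold.

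At 48 h in hid1 seeds, 10 of 11 disulfide isomerases and oxidoreductins fell and 1 rose, and 8 of 9 N-glycosylation genes fell, where 43.0% of all genes fell and 36.3% rose. PDIL1-3 (-1.23, adjusted p 1.51e-13) and STT3A (-0.73, 3.41e-13), a catalytic subunit of oligosaccharyltransferase, were among them. Of the other ER chaperones 5 of 7 fell, with HSP70-17 at 108 ± 2.19 CPM in hid1 and 247 ± 3.22 CPM in WT seeds. Of the 11 degradation genes 5 fell and 3 rose, shares near those of all genes, HRD1A (-0.55) among the fallen. Of the sensors and factors 7 of 9 rose and 2 fell. NAC103 held 9.84 ± 0.712 CPM in hid1 and 1.07 ± 0.250 CPM in WT seeds (log2 fold change 3.17, SE 0.14, adjusted p 2.28e-17), and BZIP17 rose by 0.70 (SE 0.05, 1.71e-12). Of the 18 other heat shock genes 7 fell and 5 rose, also near the shares of all genes.

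In phyB seeds at 48 h most N-glycosylation genes and other ER chaperones also lay below WT and most sensors above it. At this time, 8 of 9 N-glycosylation genes and 6 of 7 other ER chaperones fell, against 49.4% of all genes that fell and 40.0% that rose, with STT3A at -1.65 and HSP70-17 at -2.25. Of the 11 disulfide isomerases 6 fell, near the share of all genes, and 2 rose, PDIL1-1 falling to 97.7 ± 4.88 CPM in phyB, against 349.6 ± 28.5 CPM in WT seeds. Of the degradation genes 8 of 11 rose and 1 fell, UBC32 by 1.60 and HRD3A by 1.16. Of the sensors and factors 7 of 9 rose and 2 did not pass, with log2 fold changes between -0.43 and 2.62. IRE1A held 207 ± 13.3 CPM in phyB and 33.5 ± 1.75 CPM in WT seeds (log2 fold change 2.62, SE 0.07, adjusted p 5.68e-23). Of the other heat shock genes 13 fell and 5 rose.

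At 24 h in phyB seeds, 7 disulfide isomerases rose and 1 fell, 8 degradation genes rose and 1 fell, and 8 of 9 sensors and factors rose, IRE1A by 1.33 and BZIP28 by 0.88 on the log2 scale. Of all genes 31.8% rose and 34.6% fell. The N-glycosylation genes (7 of 9) and other ER chaperones (5 of 7) fell, and of the other heat shock genes 12 fell and 5 rose. With the phyB labels of 12 and 24 h exchanged, 5 disulfide isomerases rose and 3 fell, 4 other ER chaperones rose and 2 fell, and 15 of the other heat shock genes rose and 3 fell, with 33.1% of all genes higher and 34.4% lower. The other 3 lists then had 8 N-glycosylation genes that fell, 7 degradation genes that rose and 2 that fell, and 8 sensors and factors that rose. At 12 h, as a description, those past the threshold were 8 disulfide isomerases above WT and 1 below, 5 other ER chaperones above and 1 below, 9 degradation genes above and 1 below, and 7 sensors and factors above and 1 below, with 30.0% of all genes above and 34.2% below. The N-glycosylation genes lay 3 above and 2 below, with a median of 0.01, and the other heat shock genes 12 above and 3 below. ERO1 (3.96), HSP70-17 (4.13), CDC48A (2.44), NAC103 (6.48) and HSP70-3 (4.41) were the furthest of their lists. In hid1 at 12 h, also as a description, 3 disulfide isomerases, 4 other ER chaperones, 5 N-glycosylation genes, 1 sensor or factor and 9 other heat shock genes lay above WT past the threshold, and 2 sensors or factors and 2 other heat shock genes below, with 7.49% of all genes above and 5.91% below. NAC103 was the furthest, at 6.18 ± 1.14 CPM in hid1 and 1.27 ± 0.247 CPM in WT seeds.

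**Figure D5:**
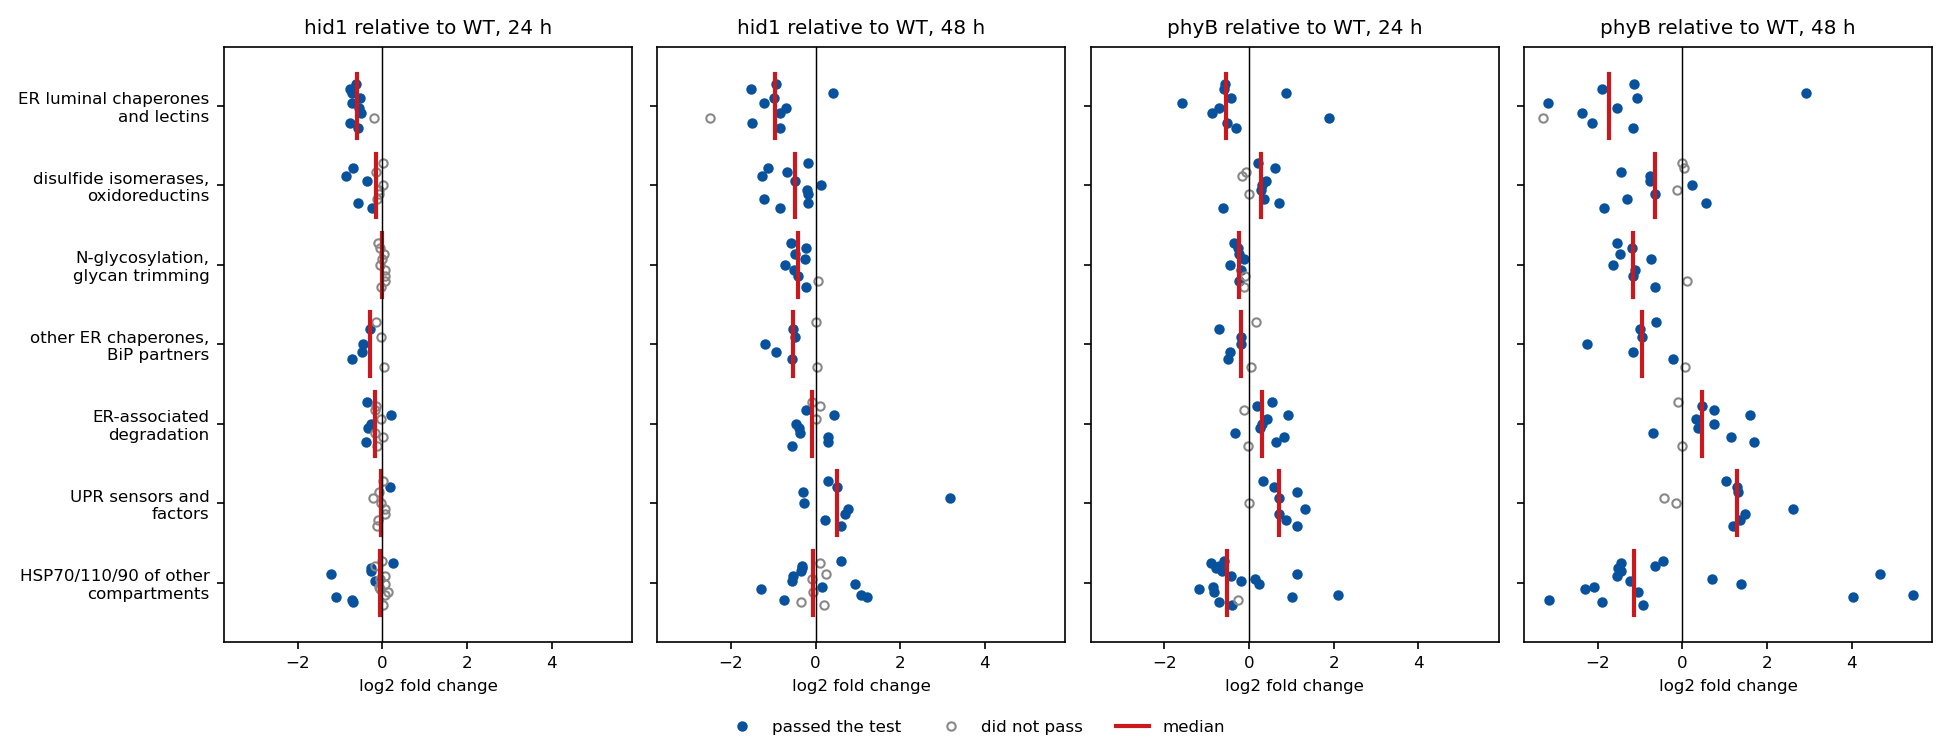
Log2 fold change of each tested gene of the members and of 6 related lists, in hid1 and phyB relative to WT at 24 and 48 h; filled points passed the test, open points did not, and red bars are list medians. At 48 h the members lie at medians of -0.96 in hid1 and -1.72 in phyB, while the sensors and factors of the unfolded protein response lie at 0.51 and 1.29.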

How the data were processed

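Per the labels, poly(A) RNA was made into TruSeq libraries and sequenced in 150 bp pairs on a HiSeq machine. Reads were handled with fastp, HISAT2 2.1.0 and SAMtools 1.6 on the TAIR10 genome, per the submitters' processing notes. The counting tool, strand setting, rule for shared reads and annotation were not given in the sources used here. Raw counts for 27 libraries were deposited by the authors, as was an FPKM table with 1 mean per group, which served for levels between genes and for symbols. Of 33612 rows, 5633 had no count.

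After filterByExpr and TMM, 20465 genes entered 1 fit of all libraries in edgeR 4.0.16 under R 4.3.3, with 18 residual degrees of freedom. Its two-sided quasi-likelihood test was adjusted by the Benjamini-Hochberg method over all genes of a comparison, and adjusted p-values under 0.05 passed. CPM use TMM-scaled library sizes. BIP3 ratios carry 95% exact counting intervals. Depth lay between 14750212 and 26293148 counts per library, which left 1 to 53 counts in a group for BIP3 outside phyB seeds at 12 and 24 h. No replicate pair was a duplicate, since the spread over 27 pairs was 2.04 to 19.6 times that of counting. The script was tested on simulated data.

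Members and lists were chosen with earlier results of these data known. The text names all members, from each list up to 2 genes with the smallest p (at 12 h the largest difference), and the 8 genes most like the shared profile. Alternatives were RLE size factors, total counts, no filter, DESeq2 1.42.0, a replicate block, only the groups compared, a fit without the phyB libraries of 12 and 24 h, leaving out each library and, chosen after seeing the data, exchanged phyB labels. Promoters and coding sequences came from RefSeq TAIR10.1, whose gene IDs matched all 10 members. Protein sequences were not used here.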

Additional observations from a re-analysis of the deposited data

Results flagged for a closer look

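The difference between hid1 and WT was not the same at 24 and 48 h for 7 members by the test of that change (edgeR's quasi-likelihood test, 48 h minus 24 h, log2 scale). It was -0.73 for BIP2, -0.33 for SHD, -0.51 for CRT1B, -0.45 for CNX1, -0.76 for ERDJ3B and -0.31 for P58IPK, and 1.13 for ERDJ3A. P58IPK passed with an adjusted p of 0.0219 and did not pass without replicate 1 or 3 of hid1 or replicate 2 or 3 of WT at 24 h, with adjusted p-values up to 0.075. Nor did it pass with total counts (0.0641) or without the phyB libraries of 12 and 24 h (0.0528).

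The difference between phyB and WT changed in all 10 members, and in 71.9% of all genes. It was -0.88 for BIP1, -1.62 for BIP2, -5.20 for BIP3, -1.49 for SHD, -0.83 for CRT1A, -1.60 for CRT1B, -0.63 for CNX1, -1.32 for ERDJ3B and -0.59 for P58IPK, and 2.03 for ERDJ3A. The value of BIP3 rests on 1 count in phyB at 48 h, so it is not a bound. All 10 use the phyB libraries of 24 h, and with the labels of 12 and 24 h exchanged ERDJ3A had 0.24, short of the threshold.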

How the results depend on the processing

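The members' count of calls, both directions together, stayed within 1.5 times its value under every alternative in 12 of the 13 comparisons. The exception was hid1 against WT at 12 h, with 4 members past the threshold, 2 with only the groups compared in the fit, and 0 to 6 when single libraries were left out. By direction, phyB against WT at 24 h moved to 5 higher and 3 lower with exchanged labels, from 2 and 8. In hid1 against phyB at 24 h it moved to 3 and 2 with total counts and to 1 and 8 with exchanged labels, from 2 and 4. In WT, 48 against 24 h, it moved to 5 and 1 with DESeq2 or without replicate 1 of 24 h, to 4 and 5 with total counts and to 3 and 3 with only the groups compared, from 5 and 3. With exchanged phyB labels, the differences from WT at 24 h turned to 0.47 for BIP1, 0.93 for BIP2, 0.25 for ERDJ3B and 0.063 for P58IPK, and that of hid1 from phyB to -0.16 for SHD. With total counts as library size, hid1 against phyB at 24 h turned to 0.077 for CNX1, 0.0014 for ERDJ3B and 0.098 for P58IPK, none of them a call. With single libraries left out, BIP3 in hid1 at 24 h lay between -0.75 and 0.26, above 0 without the third WT library (0.21) or the second hid1 library, and P58IPK in hid1 against phyB at 24 h lay between -0.13 and 0.014. The cause was not tested. BIP3 at 48 h passed with no filter (-2.51 in hid1, -3.36 in phyB), with DESeq2 (-2.76 and -3.64) and with the replicate block (-2.52 and -3.35), and in phyB also with total counts (-3.85) and without the phyB libraries of 12 and 24 h (-3.32), which depth limits, at 3, 1 and 23 counts in hid1, phyB and WT. In none of 11 comparisons did every same-numbered pair of replicates correlate above 0.1, and the main fit used no pairing. This does not show that the samples were unpaired. In hid1 against WT these correlations ran between 0.022 and 0.294 at 12 h. They ran between 0.0031 and 0.057 at 24 h and between 0.078 and 0.245 at 48 h. Other comparisons reached down to -0.097, in phyB against WT at 48 h. With the replicate block, 10 members passed at 48 h in hid1 and in phyB, against 9 without it, and 6 against 4 in hid1 at 12 h.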
